A study of Mus musculus with 12 samples.

Results

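The change in every transcript with PD173074, a small-molecule inhibitor of the FGF receptor kinases, was measured in tumourspheres also treated with the Met inhibitor Crizotinib. For these libraries the study describes a 24 h treatment with both agents and mentions no earlier treatment with Crizotinib alone. The comparison set 3 libraries treated with both inhibitors, the combination, against 3 libraries treated with Crizotinib alone, paired by cell line. It thus contrasted 6 of the 12 libraries of the series, but the main fit held all 12. The remaining libraries were treated with DMSO, the solvent, or with PD173074 alone, and served to ask whether PD173074 did something different when Met was free to signal. They also shared in the estimate of spread behind the p-values of the main fit. Each treatment was applied for 24 h and the doses are not given in the labels. Tumourspheres are clusters that grow in suspension from cells able to survive without attachment.

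A1005, A1129 and A1471 are independent lines from spindloid mammary tumours of MMTV-Metmt;Trp53fl/+;Cre mice. Every library, controls included, therefore came from tumours of that genotype. The genotype holds the mutant Met transgene, driven by the mouse mammary tumour virus promoter, and a floxed Trp53 allele with Cre. The study also describes amplification of the endogenous Met locus in this model. How the Met reads divide between the transgene and the endogenous gene was not tested. Each line contributed 1 library to each treatment, so the replicates were cell lines and not repeated cultures of a line. The sphere medium of the study held EGF, basic FGF with heparin, insulin and hydrocortisone, so ligands for the EGF and FGF receptors were supplied to every group.

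FGF receptors are tyrosine kinases that, once bound by FGF and heparan sulphate, phosphorylate the adaptor FRS2 and through GRB2 and SOS switch on RAS, RAF, MEK and ERK. Met, the receptor for hepatocyte growth factor, feeds the same RAS and ERK chain through the adaptor GAB1. Active ERK induces its own brakes, the Sprouty and Spred proteins and the dual-specificity phosphatases, together with ETS and AP-1 transcription factors and Cyclin D1, and the transcripts of these genes are widely read as a measure of ERK output.

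The deposited gene counts summed to between 13077143 and 17750476 reads per combination library and between 14094195 and 15042414 per Crizotinib library, and 13836 genes passed the filter on low counts. The summed level of 8 mesenchymal markers ran from 2715 to 8756 CPM over the 6 libraries, most of it from Vim and Fn1. Other members were low: Cdh2 and Snai2 had at most 5 reads in any Crizotinib library and were too low to test. In the combination libraries of A1005, A1129 and A1471, Cdh2 had 0, 0 and 6 reads and Snai2 had 0, 17 and 32. Vim, an intermediate filament of mesenchymal cells, was at 3019.7, 2214 and 2692 CPM with Crizotinib and 2737, 1903 and 3204 CPM with the combination. Values are listed for the lines A1005, A1129 and A1471 in that order, as is every set of values given here. CPM is read counts scaled to a common library size with the TMM factors of edgeR, except in the summed marker levels, which are scaled to total counts alone. The summed level of 8 defining epithelial markers lay between 34.0 and 56.7 CPM with Crizotinib and between 8.87 and 43.6 CPM with the combination. The summed level of 7 endothelial and blood markers did not exceed 0.783 CPM in any of the 6 libraries. That of 8 leukocyte markers ran from 22.2 to 88.2 CPM with Crizotinib and from 15.5 to 62.4 CPM with the combination, and the pan-leukocyte gene Ptprc was at 14.0, 0.0660 and 0 CPM with Crizotinib and 17.5, 0 and 0 CPM with the combination. These bulk libraries cannot tell fewer cells of a kind from less RNA per cell.

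PD173074 changed a large share of the transcriptome of Met-inhibited spheres. With edgeR's quasi-likelihood test, the cell line as a block and an adjusted p of 0.05, 7389 genes differed between the combination and Crizotinib, which is 53.4% of those tested. Of these, 3797 were higher (27.4% of genes tested) and 3592 lower (26.0%) with the combination. The study's own limit of 1.5 on the log2 scale left 1770 genes (12.8%), of which 1051 rose (7.60%) and 719 fell (5.20%), and these are called large changes here. Without the block, the unpaired form of analysis that the study's methods state, 1823 genes passed (13.2%), with 747 higher (5.40%) and 1076 lower (7.78%), and all 1823 were among the 7389 and had the same direction.

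The extent of the shift differed between the lines. Changes over 2-fold were most frequent in A1471 (4122 genes), followed by A1129 (3662) and A1005 (2643), and the root mean square log2 distance between the combination and Crizotinib was 1.11 ± 0.121 (SD, n = 3 lines). The same distance between PD173074 and DMSO was 0.569 ± 0.106 (SD, n = 3 lines). The direction was shared by all 3 lines for 64.8% of genes tested, and for 4104 genes (29.7%) the 3 combination libraries lay wholly above (13.6%) or wholly below (16.1%) the 3 Crizotinib libraries.

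Among genes that changed in 1 direction in all 3 lines and averaged 3 or more on the log2 CPM scale over the 12 libraries, the 15 largest falls were Spry4, Eya2, Areg, Glp1r, Dusp6, Ccnd1, Etv5, Etv4, Upp1, Csf3, Nrarp, Mmp3, Epha2, Egr3 and Dll4, from -6.19 to -4.29 on the log2 scale. The 15 largest rises were Rasl12, Ogn, Plin4, Ccn5, Nrep, Fat4, Bmf, Saa3, Ptgds, Col11a1, Prg4, Col12a1, Tmem44, Mme and Gdpd2, from 8.09 down to 5.14. Several of the rises met the limit on level mainly through libraries with PD173074 and had few reads with Crizotinib (0, 4 and 0 for Rasl12, 14, 2 and 1 for Ogn, 8, 18 and 0 for Plin4), so their exact size and rank are uncertain. The groups did not overlap for 13 of the falls and 11 of the rises (backgrounds 16.1% below and 13.6% above). Without the block 13 of the falls and 6 of the rises passed the test (backgrounds 7.78% lower and 5.40% higher). These genes were picked as the largest changes among called genes, so their counts are descriptions. The falls included the ERK regulators Spry4 and Dusp6, and the rises the matrix genes Ogn, Col11a1 and Col12a1, the lipid droplet gene Plin4 and the cell death gene Bmf.

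The transcripts of Fgfr1 and Met moved little. Fgfr1, the FGF receptor kinase gene with by far the most reads, was at 325, 337 and 293 CPM with Crizotinib and 217, 302 and 282 CPM with the combination and was not called (log2 change -0.26 ± 0.13, adjusted p = 0.128, where ± gives the standard error of a log2 change throughout). Fgfr2 rose from a very low level, from 0, 4 and 2 reads to 1, 32 and 25 reads (3.20 ± 0.50, adjusted p = 4.85e-04; without the block, adjusted p = 0.206), and Fgfr3 stayed at or below 2.80 CPM in all 6 libraries. Met rose modestly, from 4825, 4434 and 2126 CPM to 5979.9, 6920.5 and 2666 CPM (log2 change 0.43 ± 0.14, adjusted p = 0.0277; without the block, adjusted p = 0.567), and the groups overlapped, A1471 having the lowest level in both. Per kilobase of exon, the mean level with Crizotinib was 494 ± 190.0 RPKM for Met and 32.2 ± 2.27 RPKM for Fgfr1 (SD, n = 3 lines).

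Of 15 tested genes of the FGF receptor, ligand and adaptor list, 6 were higher and 0 lower, against backgrounds of 27.4% and 26.0%. This list and those that follow were chosen with earlier results of these data known, so their counts beside the backgrounds are descriptions. Large rises were those of Gab1, Fgfr2 and Fgf18, and Fgf18, a ligand gene, had 3, 5 and 1 reads with Crizotinib and 9, 52 and 14 with the combination. Without the block 1 of the 6 passed. For this and every later list, the backgrounds without the block were 5.40% higher and 7.78% lower. Gab1, the adaptor that couples Met and FGF receptors to RAS and PI3 kinase signalling, was at 10.4, 18.03 and 11.7 CPM with Crizotinib and 21.01, 58.8 and 40.7 CPM with the combination. All 3 combination libraries lay above all 3 Crizotinib libraries (log2 change 1.53 ± 0.17, adjusted p = 7.22e-05). Frs2, which docks signalling proteins to the activated FGF receptor, rose by less (0.39 ± 0.10, adjusted p = 0.00957), as did Plcg1, a phospholipase that FGF receptors phosphorylate (0.63 ± 0.13, adjusted p = 0.0027), and Fgfrl1, a receptor that lacks a kinase domain (0.67 ± 0.17, adjusted p = 0.00755).

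Among 18 other receptor tyrosine kinase genes, 8 were higher and 3 lower (backgrounds 27.4% and 26.0%), and without the block 0 of the 8 and 1 of the 3 passed. Epha2, an ephrin receptor whose gene responds to RAS and ERK activity, was at 229.9, 154 and 184 CPM with Crizotinib and 18.6, 4.20 and 6.64 CPM with the combination (-4.32 ± 0.42, adjusted p = 2.71e-05), with no overlap between groups. In the upward direction the collagen receptor Ddr1 changed by 1.99 ± 0.24 (adjusted p = 9.19e-05). Of the PDGF receptors, Pdgfra changed by 1.0 ± 0.25 (adjusted p = 0.00662) and Pdgfrb by 3.36 ± 0.37 (adjusted p = 6.09e-05), from 4.03, 1.06 and 5.97 CPM to 37.1, 4.51 and 98.3 CPM. Without the block, their adjusted p lay between 0.109 and 0.321.

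The negative feedback genes of the ERK chain fell steeply. Spry4, a Sprouty inhibitor of RAS activation, was at 8.95, 33.1 and 21.2 CPM with Crizotinib and 0.111, 0.627 and 0.0754 CPM with the combination, a log2 change of -6.19 ± 0.32 (adjusted p = 1.11e-06). Dusp6 (chr10:99263231-99267489 in mm10, forward strand), the cytoplasmic phosphatase that removes phosphate from ERK, was at 270.5, 261 and 143 CPM with Crizotinib and 9.51, 4.01 and 3.17 CPM with the combination, a change of -5.37 ± 0.22 (adjusted p = 5.14e-07). In both genes every Crizotinib library was well above every combination library, and Spry4 was nearly silent in A1005 and A1471 once both inhibitors were present.

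Of 8 genes encoding Sprouty, Spred and Sef inhibitors, 5 fell and 1 rose (backgrounds 26.0% and 27.4%), with a list median of -2.28 against 0.0166 for all genes tested. Spry2 changed by -2.48 ± 0.19 (adjusted p = 7.42e-06), Spred1 by -2.08 ± 0.29 (adjusted p = 2.27e-04), Spred2 by -3.02 ± 0.27 (adjusted p = 1.95e-05) and Spred3 by -2.60 ± 0.29 (adjusted p = 7.04e-05). The groups did not overlap for Spry2, Spred1, Spred2, Spred3 or Spry4, and all 5 also passed without the block. Spry1 was not called, at 6.35, 10.6 and 14.5 CPM with Crizotinib and 5.73, 5.70 and 13.3 CPM with the combination. Il17rd, which encodes Sef, went the other way, from 0.752, 3.10 and 2.52 CPM to 2.11, 11.03 and 19.0 CPM (2.19 ± 0.40, adjusted p = 0.00124). It did not pass without the block (adjusted p = 0.148).

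**Figure D1:**
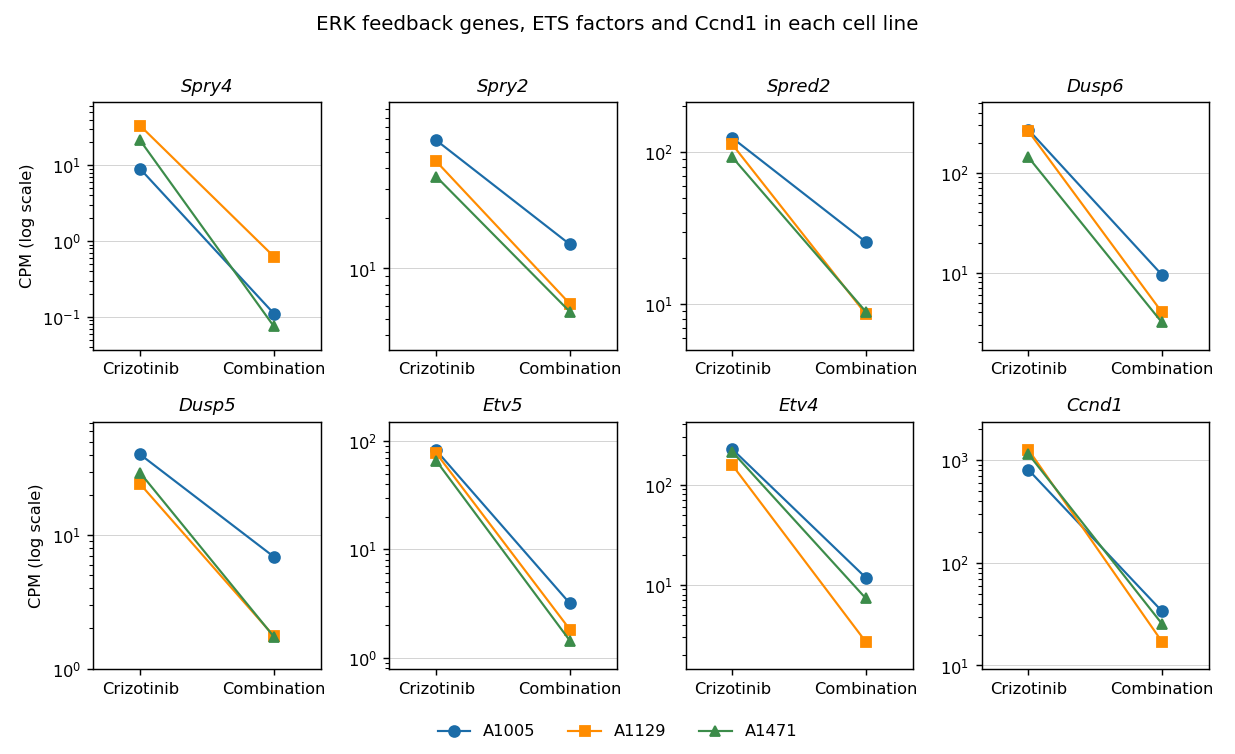
Level of 8 genes in CPM, on a log scale, in each of the 6 libraries; a line joins the Crizotinib and combination libraries of 1 cell line. Every gene was lower with the combination in all 3 lines, and the largest fitted change was that of Spry4 (-6.19 on the log2 scale).

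The dual-specificity phosphatases divided by member. Of 10 tested, 6 fell and 4 rose (backgrounds 26.0% and 27.4%), and 5 of the falls were large. Without the block 5 and 0 passed, the large fall of Dusp9 not among them (adjusted p = 0.267). Dusp5, a nuclear ERK phosphatase, was at 40.3, 24.2 and 29.3 CPM with Crizotinib and 6.89, 1.75 and 1.74 CPM with the combination (-3.25 ± 0.31, adjusted p = 2.78e-05), while Dusp4 changed by -3.02 ± 0.43 (adjusted p = 2.70e-04), Dusp2 by -3.40 ± 0.47 (adjusted p = 2.39e-04) and Dusp9 by -1.74 ± 0.19 (adjusted p = 5.71e-05). Dusp1, which prefers the stress kinases p38 and JNK, rose from 46.7, 15.7 and 6.18 CPM to 132, 71.6 and 39.1 CPM (2.08 ± 0.22, adjusted p = 4.25e-05; without the block, adjusted p = 0.218), and the other members that rose were Dusp8, Dusp10 and Dusp16.

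The Pea3 group of ETS transcription factors, a common endpoint of FGF signalling, fell together. Etv5 (chr16:22381309-22439719, reverse strand) was at 82.1, 77.4 and 65.9 CPM with Crizotinib and 3.17, 1.82 and 1.43 CPM with the combination and had one of the lowest p-values of all genes (-5.12 ± 0.19, adjusted p = 2.89e-07). Etv4 was at 226, 157 and 213 CPM with Crizotinib and 11.8, 2.69 and 7.32 CPM with the combination (-4.85 ± 0.28, adjusted p = 1.42e-06) and Etv1 at 83.8, 191 and 111 CPM with Crizotinib and 11.4, 20.2 and 7.70 CPM with the combination (-3.29 ± 0.17, adjusted p = 1.12e-06). In none of the 3 did the groups overlap. The other ETS factors moved by less, with Elk3 at -0.82 ± 0.14 (adjusted p = 8.42e-04) and Ets1 at 0.89 ± 0.13 (adjusted p = 3.36e-04). Of 15 tested in all, 6 were lower and 6 higher (backgrounds 26.0% and 27.4%), and without the block 3 and 1 passed.

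Of 26 immediate early genes tested, 10 were lower and 6 higher (backgrounds 26.0% and 27.4%), and without the block 3 and 3 passed. Fosl1, which encodes the AP-1 subunit FRA1 and whose transcription follows sustained ERK activity, was at 346, 234 and 272 CPM with Crizotinib and 51.4, 17.2 and 33.3 CPM with the combination (-3.10 ± 0.29, adjusted p = 2.28e-05), and Egr3 was at 10.4, 20.2 and 16.2 CPM with Crizotinib and 1.67, 0.188 and 0.226 CPM with the combination (-4.29 ± 0.62, adjusted p = 3.04e-04). Ier3, a stress and growth factor response gene, changed by -2.66 ± 0.19 (adjusted p = 4.65e-06) and Myc, the growth regulator, by -1.06 ± 0.19 (adjusted p = 9.95e-04; without the block, adjusted p = 0.0845).

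The 6 that rose included AP-1 and Kruppel-like factors. Jund, the AP-1 subunit linked to quiescence, rose from 109, 96.0 and 108 CPM to 249.98, 747 and 430.2 CPM (2.09 ± 0.27, adjusted p = 1.52e-04) with no overlap. Fosl2, the gene for the AP-1 subunit FRA2, rose by 1.39 ± 0.19 (adjusted p = 2.20e-04), and Klf2, a factor of quiescent cells, by 2.34 ± 0.47 (adjusted p = 0.00216). Klf2 hardly differed in A1005, where it was at 11.9 and 15.01 CPM, and rose in A1129 and A1471.

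Among 11 tested genes for EGF receptor ligands and feedback, 6 were lower and 0 higher (backgrounds 26.0% and 27.4%), and 5 were not called. Without the block 2 of the 6 passed, Areg and Hbegf. Areg, which encodes amphiregulin, was at 39.2, 7.40 and 10.6 CPM with Crizotinib and 0.500, 0.376 and 0.226 CPM with the combination (-5.52 ± 0.36, adjusted p = 2.59e-06), Btc changed by -3.75 ± 0.36 (adjusted p = 2.71e-05), Hbegf by -2.22 ± 0.28 (adjusted p = 1.37e-04) and Tgfa by -2.10 ± 0.32 (adjusted p = 4.28e-04). Lrig1, which promotes degradation of EGF receptors, fell by less (-0.88 ± 0.11, adjusted p = 1.30e-04). Among secreted or signalling genes in the 15 largest falls, Csf3, the gene for the granulocyte growth factor G-CSF, was at 276, 163 and 101 CPM with Crizotinib and 23.1, 2.44 and 0.679 CPM with the combination (-4.75 ± 0.61, adjusted p = 1.47e-04). The Notch ligand Dll4 changed by -4.29 ± 0.44 (adjusted p = 4.31e-05) and the Notch target Nrarp by -4.47 ± 0.40 (adjusted p = 1.92e-05). Dll4 was nearly absent from A1005, at 0.137 and 0 CPM, and did not pass without the block (adjusted p = 0.283). Glp1r, a peptide hormone receptor, changed by -5.41 ± 0.30 (adjusted p = 1.31e-06), Upp1, a uridine phosphorylase, by -4.79 ± 0.27 (adjusted p = 1.31e-06), and Eya2, a transcriptional coactivator with phosphatase activity, by -5.57 ± 0.76 (adjusted p = 2.20e-04).

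Cyclin D1, the step at which growth factor signals enter the cell cycle, lost most of its transcript. Ccnd1 (chr7:144929931-144939925, reverse strand) was at 810.5, 1273 and 1155 CPM with Crizotinib and 33.9, 17.1 and 25.5 CPM with the combination, a log2 change of -5.35 ± 0.32 (adjusted p = 1.64e-06). Every Crizotinib library was above every combination library by more than an order of magnitude. Of 24 genes for G1 cyclins, E2F factors and CDK inhibitors, 16 fell and 4 rose (backgrounds 26.0% and 27.4%), and without the block 11 and 0 passed. Ccne2, a Cyclin E gene, changed by -2.48 ± 0.32 (adjusted p = 1.52e-04) and Foxm1, a driver of mitotic transcription, by -1.75 ± 0.14 (adjusted p = 1.03e-05). E2f8, a repressor that is itself an E2F target, was at 76.6, 134 and 149 CPM with Crizotinib and 6.28, 11.97 and 7.85 CPM with the combination (-3.77 ± 0.17, adjusted p = 5.97e-07), and Mybl2, the MuvB partner that opens mitotic promoters, was at 93.5, 86.4 and 86.1 CPM with Crizotinib and 11.01, 14.0 and 11.4 CPM with the combination (-2.88 ± 0.14, adjusted p = 9.05e-07).

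The CDK inhibitors did not rise together. Cdkn1a, the p21 gene, was at 112, 59.4 and 96.5 CPM with Crizotinib and 51.9, 109 and 48.4 CPM with the combination, higher in A1129 and lower in A1005 and A1471 (-0.30 ± 0.35, adjusted p = 0.503). Cdkn2d fell (-1.49 ± 0.19, adjusted p = 1.60e-04) and Cdkn2a, which encodes p16 and p19ARF, rose by 0.48 ± 0.10 (adjusted p = 0.00285). The retinoblastoma gene Rb1 rose by 1.56 ± 0.38 (adjusted p = 0.00579), by the most in A1129, where it went from 29.1 to 157 CPM. Cdk4 was not called (0.25 ± 0.13, adjusted p = 0.132).

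Genes of DNA replication were lower without exception. All 32 listed genes were tested and all 32 fell, against 26.0% of genes tested, with a median of -1.71 and a range from -3.88 to -0.46. As the list was chosen with earlier results of these data known, its count is a description. Tk1, a thymidine kinase made in S phase, was at 121, 109 and 105 CPM with Crizotinib and 15.3, 5.58 and 3.62 CPM with the combination (-3.88 ± 0.32, adjusted p = 1.09e-05), Rrm2, the regulated subunit of ribonucleotide reductase, at 196, 230.2 and 193 CPM with Crizotinib and 34.8, 33.8 and 15.2 CPM with the combination (-2.92 ± 0.20, adjusted p = 4.05e-06), and Cdc6, a loader of the replicative helicase, at 52.3, 53.2 and 70.2 CPM with Crizotinib and 13.01, 9.84 and 9.28 CPM with the combination (-2.44 ± 0.16, adjusted p = 2.86e-06). The smallest change was that of Rfc3 (-0.46 ± 0.11, adjusted p = 0.00514). The list's median was nearly the same in each line (A1005 -1.60, A1129 -1.67, A1471 -1.81), and 27 of the 32 also passed without the block (background 7.78%).

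Mitotic genes fell within a narrow range. All 32 fell, all 32 changes were large (background 5.20%), and in all 32 the 3 combination libraries lay below the 3 Crizotinib libraries (background 16.1%), with fitted changes from -2.63 to -1.55. This list too was chosen with earlier results known. Birc5, the gene of the chromosomal passenger protein survivin, was at 124, 119 and 129 CPM with Crizotinib and 22.7, 20.8 and 18.8 CPM with the combination (-2.58 ± 0.09, adjusted p = 2.89e-07). Aurkb, the kinase of the same complex, was at 70.6, 77.6 and 102 CPM with Crizotinib and 12.6, 11.6 and 16.0 CPM with the combination (-2.63 ± 0.11, adjusted p = 5.97e-07), and Cdk1, the mitotic kinase, was at 186, 148 and 159.9 CPM with Crizotinib and 40.1, 37.5 and 34.6 CPM with the combination (-2.13 ± 0.09, adjusted p = 5.97e-07).

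The lines were close to each other in these genes, with list medians from -2.46 (A1005) to -1.70 (A1129) and -2.19 for A1471. The proliferation marker Mki67 changed by -2.03 ± 0.24 (adjusted p = 9.21e-05), and Top2a, the topoisomerase that resolves sister chromatids, by -2.51 ± 0.14 (adjusted p = 1.39e-06). Of the 10 genes with the lowest p-values across the whole transcriptome, Birc5, Aurkb and Cdk1 were on this list, and Pimreg, Cks2 and Arhgap19 are also expressed mainly in dividing cells, with changes of -2.43 ± 0.09, -1.95 ± 0.09 and -2.62 ± 0.12. At the levels that remained, Birc5, Aurkb and Cdk1 all kept values above 11 CPM in every combination library.

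The promoters of these genes carry letters that are well known from cell cycle control, and 5 are shown because the replication and mitosis genes all fell. In the RefSeq promoter table (GRCm38.p6, 250 bases before to 50 bases after the start), 10035 of 13833 tested gene symbols had an entry. The cell cycle homology region TTTGAA, read on both strands, was found in 20 of 28 mitosis genes (71.4%) and in 14.1% of all tested genes. CCAAT, the binding letters of the NF-Y factor, was found in 20 of the 28 (71.4%) and in 43.6% of all. The E2F letters TTTCCCGC, TTTGGCGC, TTTCGCGC or TTTGCCGC were found in 12 of 25 replication genes (48.0%) and in 4.76% of all. A match is a description of the letters only. The stretches shown run from a few bases before the first match to the start site, with the matches in capitals: TTTGAA and CCAAT, or their complements, in Cdk1 (chr10:69352913-69353132, reverse strand) and Ccnb2 (chr9:70421555-70421733, reverse strand), and E2F letters in Cdc6 (chr11:98908001-98908150, forward strand), Mcm5 (chr8:75109344-75109508, forward strand) and Mcm7 (chr5:138171884-138172060, reverse strand).
Cdk1: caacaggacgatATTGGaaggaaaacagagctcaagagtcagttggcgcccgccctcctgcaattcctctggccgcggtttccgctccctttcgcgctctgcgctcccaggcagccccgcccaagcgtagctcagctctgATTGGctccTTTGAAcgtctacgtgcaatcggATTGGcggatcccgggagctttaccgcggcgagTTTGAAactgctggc
Ccnb2: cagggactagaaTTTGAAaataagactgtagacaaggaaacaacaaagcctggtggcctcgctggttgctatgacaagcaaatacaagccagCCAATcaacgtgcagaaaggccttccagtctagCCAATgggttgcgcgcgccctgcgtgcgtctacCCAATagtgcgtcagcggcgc
Cdc6: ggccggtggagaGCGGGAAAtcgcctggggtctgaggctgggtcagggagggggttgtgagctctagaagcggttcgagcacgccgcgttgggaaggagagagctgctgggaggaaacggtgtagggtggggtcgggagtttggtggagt
Mcm5: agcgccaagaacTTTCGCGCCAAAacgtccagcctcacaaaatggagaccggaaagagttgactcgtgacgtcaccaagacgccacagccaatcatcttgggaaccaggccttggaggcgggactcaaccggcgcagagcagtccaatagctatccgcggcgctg
Mcm7: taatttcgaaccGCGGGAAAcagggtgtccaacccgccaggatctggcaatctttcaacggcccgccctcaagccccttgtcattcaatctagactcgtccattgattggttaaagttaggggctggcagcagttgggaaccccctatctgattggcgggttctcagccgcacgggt
Each of these genes fell, with a log2 change in Ccnb2 of -1.82 ± 0.17, in Mcm5 of -1.94 ± 0.11 and in Mcm7 of -1.26 ± 0.09, and in none of the 5 did the groups overlap. In Mcm5, TTTCGCGC and the complement of TTTGGCGC overlap in 1 run. Capitals mark only the letters named for each gene. In lower case, Cdk1 also holds the E2F letters TTTCGCGC, and Mcm5 and Mcm7 hold CCAAT or its complement.

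Ribosome biogenesis factors, which build the ribosomes a growing cell needs, also fell, by less. All 20 were lower (background 26.0%), with a median of -0.99, none of the changes was large, and 11 passed without the block (background 7.78%). Ncl, the abundant nucleolar protein nucleolin, was at 1711, 2061 and 2732 CPM with Crizotinib and 926, 981 and 1189 CPM with the combination (-1.05 ± 0.12, adjusted p = 9.39e-05). Nop56, a core protein of the particles that methylate ribosomal RNA, changed by -1.29 ± 0.18 (adjusted p = 2.65e-04), Polr1b, a subunit of RNA polymerase I, by -1.09 ± 0.14 (adjusted p = 1.73e-04), and Pes1 by -0.40 ± 0.09 (adjusted p = 0.00512).

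**Figure D2:**
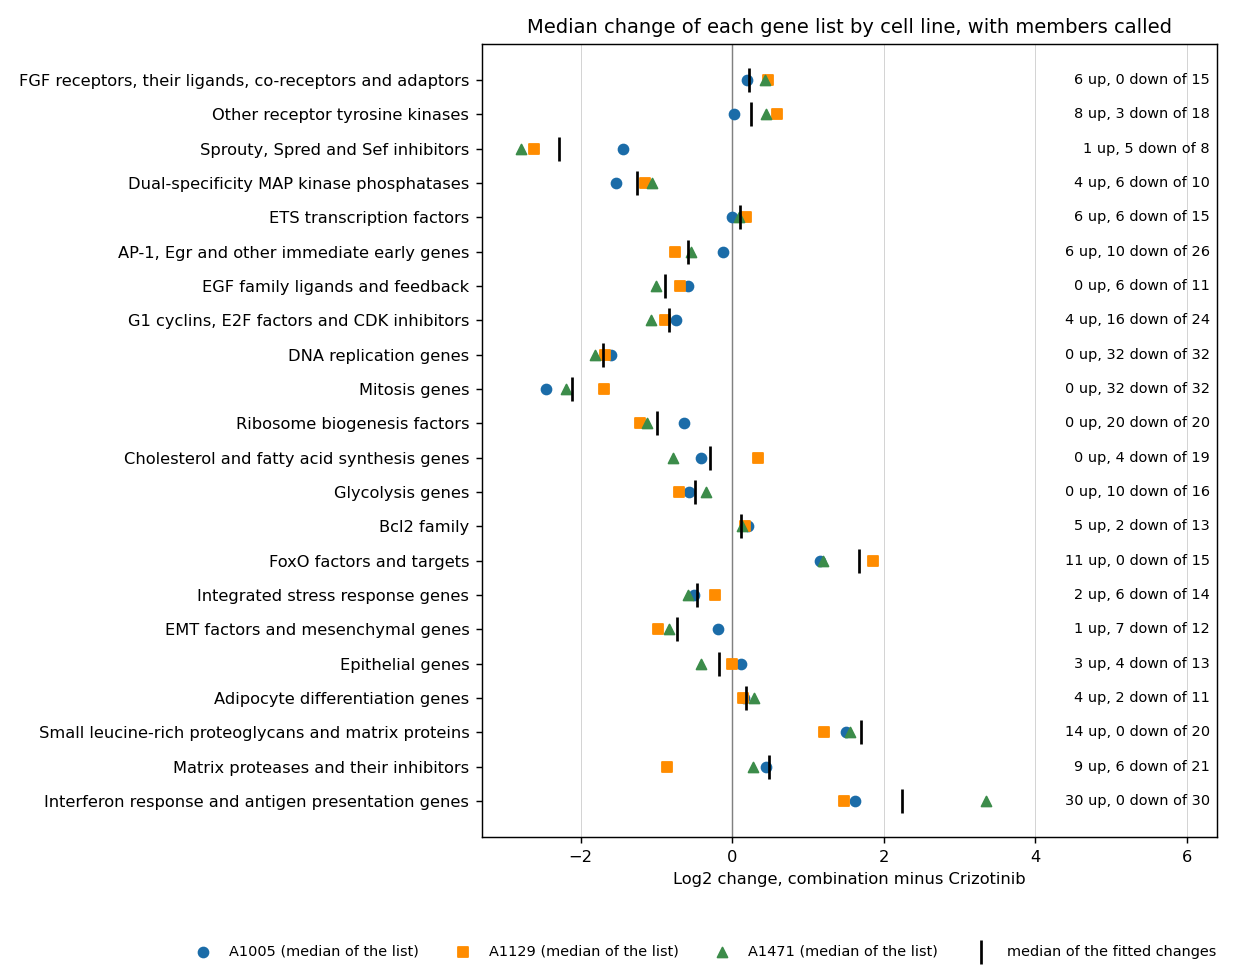
Median log2 change (combination minus Crizotinib) over the tested members of each gene list, as a point for each cell line and as a bar for the fitted changes, with the members called higher and lower at the right. The cell cycle lists sit to the left of 0 in all 3 lines (mitosis median -2.11) and the interferon list to the right (2.25).

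Among genes that rose, the cell death regulator Bmf changed alike in all 3 lines. Bmf (chr2:118528757-118549687, reverse strand) encodes a BH3-only protein that neutralises Bcl2 proteins, and it was at 2.94, 1.92 and 2.16 CPM with Crizotinib and 111, 119.5 and 126 CPM with the combination (5.73 ± 0.43, adjusted p = 6.13e-06). Of 13 Bcl2 family genes, 5 rose and 2 fell (backgrounds 27.4% and 26.0%). Without the block 4 and 0 passed, Bbc3 and Bcl2 not among them (adjusted p = 0.19 and 0.268). The other BH3-only genes that rose did so by much less, Bcl2l11, the Bim gene, by 1.12 ± 0.17 (adjusted p = 3.48e-04), Bad by 0.86 ± 0.11 (adjusted p = 1.21e-04), Bbc3, the Puma gene, by 0.94 ± 0.18 (adjusted p = 0.00151), and Bid by 0.63 ± 0.16 (adjusted p = 0.0065). Bcl2, which opposes cell death, fell from 23.4, 15.8 and 18.05 CPM to 19.2, 4.95 and 2.64 CPM (-1.33 ± 0.38, adjusted p = 0.0144), and A1005 changed little in that gene.

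FoxO transcription factors are held out of the nucleus by AKT downstream of growth factor receptors, and genes of that list rose. Of 15 tested, 11 were higher and 0 lower (backgrounds 27.4% and 26.0%), 8 of the rises were large (background 7.60%), and the median was 1.67. Fbxo32, the ubiquitin ligase atrogin, was at 13.8, 4.16 and 9.92 CPM with Crizotinib and 83.9, 68.6 and 122 CPM with the combination (3.50 ± 0.39, adjusted p = 6.75e-05). Irs1, an insulin receptor substrate, rose by 2.85 ± 0.37 (adjusted p = 1.53e-04), Pik3ip1, an inhibitor of PI3 kinase, by 2.59 ± 0.37 (adjusted p = 2.76e-04), and Tsc22d3, which encodes GILZ, by 2.22 ± 0.25 (adjusted p = 7.59e-05). Without the block, 5 of the 11 passed (background 5.40%).

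The matrix list rose as a group but with large differences in level between lines. Of 20 genes for small leucine-rich proteoglycans and other matrix proteins, 14 were higher and 0 lower (backgrounds 27.4% and 26.0%). A large change was seen in 12 of them (background 7.60%), and the list median was 1.70. Ogn (chr13:49608046-49624501, forward strand), which encodes the proteoglycan osteoglycin, went from 0.956, 0.132 and 0.0719 CPM to 111, 79.3 and 17.4 CPM (7.46 ± 0.62, adjusted p = 1.10e-05). Sparc, a collagen-binding matrix protein, was at 634, 288 and 129 CPM with Crizotinib and 1792, 1140.3 and 1263 CPM with the combination (2.23 ± 0.33, adjusted p = 3.42e-04), and Col6a1, a chain of type VI collagen, at 119, 169.6 and 212 CPM with Crizotinib and 278, 525 and 896 CPM with the combination (1.67 ± 0.19, adjusted p = 7.62e-05). In these 3 genes the groups did not overlap.

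Other matrix genes depended on the line. Col1a1, a chain of type I collagen, was essentially a gene of A1005, at 248, 0 and 0.288 CPM with Crizotinib and 759, 0.313 and 0.679 CPM with the combination (1.65 ± 0.24, adjusted p = 3.05e-04; without the block, adjusted p = 0.826), and Dcn, which encodes decorin, was highest in A1471 at 70.1 and 205 CPM. Postn, the periostin gene, had 0 reads in all 3 Crizotinib libraries and 5, 33 and 242 reads in the combination libraries, at least 89.1-fold higher when 3 reads over the Crizotinib group are taken as the floor. Without the block only 3 of the 14 passed (background 5.40%).

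Of 21 matrix proteases and inhibitors, 9 were higher and 6 lower (backgrounds 27.4% and 26.0%), and the share lower was near the background. Without the block 4 and 1 passed, Mmp3 and Timp1 not among them (adjusted p = 0.268 and 0.0945). Mmp3, a stromelysin regulated by AP-1, went from 916, 65.1 and 4.17 CPM to 40.8, 1.63 and 0.679 CPM (-4.46 ± 0.42, adjusted p = 2.55e-05), a fall in each line from very different starting levels. Plaur, the urokinase receptor, changed by -3.04 ± 0.43 (adjusted p = 2.54e-04) and the inhibitor Timp1 by -1.26 ± 0.14 (adjusted p = 6.47e-05). In the other direction Mmp14, a membrane-anchored collagenase, was at 98.3, 66.5 and 139 CPM with Crizotinib and 263, 304 and 1003 CPM with the combination (2.17 ± 0.24, adjusted p = 6.65e-05), Timp2, the inhibitor that works with it, at 617, 495 and 539 CPM with Crizotinib and 1214, 1957 and 2914 CPM with the combination (1.82 ± 0.25, adjusted p = 2.43e-04), and Mmp11 changed by 2.68 ± 0.48 (adjusted p = 0.00104).

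**Figure D3:**
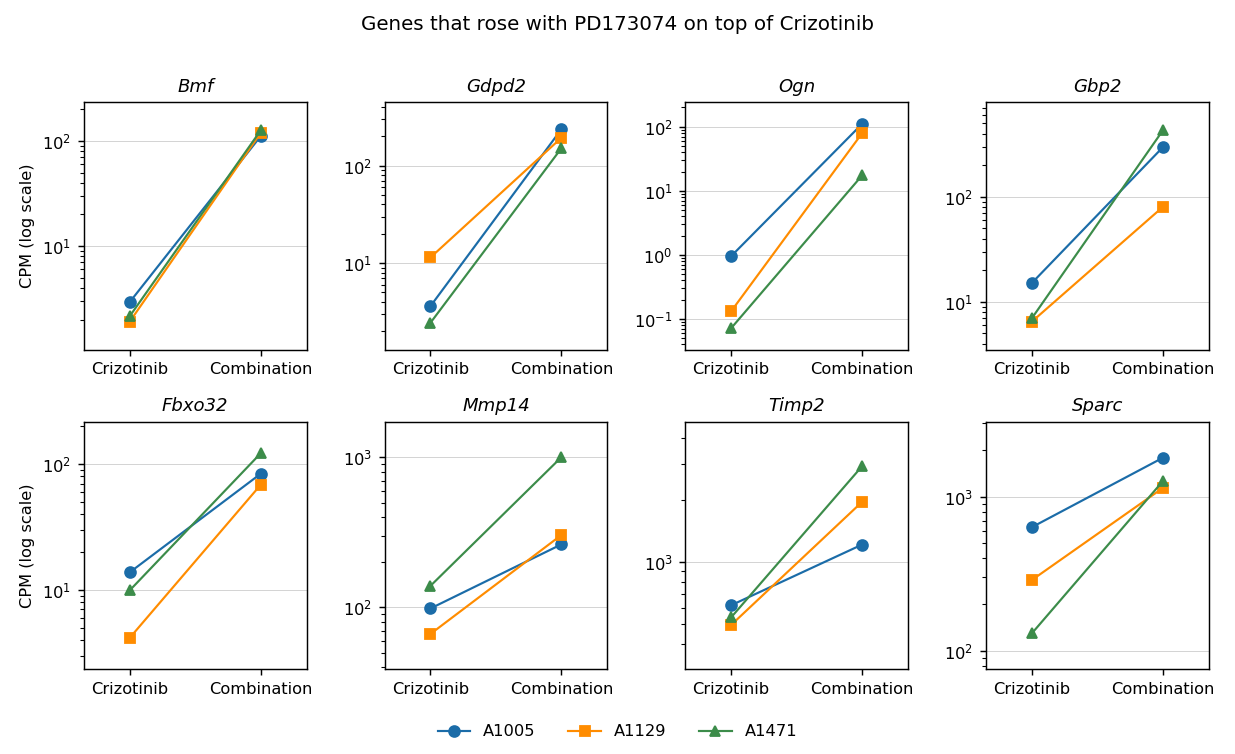
Level of 8 genes in CPM, on a log scale, in each of the 6 libraries; a line joins the Crizotinib and combination libraries of 1 cell line. All 8 were higher with the combination in all 3 lines with no overlap between groups, and the combination values of Bmf (111, 119.5 and 126 CPM) were the closest between lines.

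Of 12 EMT and mesenchymal genes, 7 fell and 1 rose (backgrounds 26.0% and 27.4%), and without the block 3 and 0 passed. Hmga2, a chromatin protein that promotes mesenchymal and stem-like programmes, was at 632, 408 and 329 CPM with Crizotinib and 84.9, 44.3 and 38.6 CPM with the combination (-3.06 ± 0.10, adjusted p = 2.89e-07). Cd44, the hyaluronan receptor, was at 532, 591 and 747 CPM with Crizotinib and 176, 74.6 and 111 CPM with the combination (-2.37 ± 0.28, adjusted p = 8.38e-05), and Twist1, an EMT transcription factor, at 132, 126 and 113 CPM with Crizotinib and 61.1, 53.9 and 44.5 CPM with the combination (-1.22 ± 0.11, adjusted p = 1.45e-05). The groups did not overlap in any of the 3. Twist1, Hmga2 and Cd44, like Mybl2, Gdpd2, Ogn, Bmf and Bad, are genes the study itself picked out from these samples, so their direction is not independent evidence. Of 11 tested genes that the study names, 6 were higher and 5 lower (backgrounds 27.4% and 26.0%). Among the 6 was Aldh1l1, which the study, printing Aldh1h1, reports as reduced with both inhibitors. The study's statement concerns DMSO controls and quantitative PCR. Hes1 fell (-1.50, adjusted p = 0.0389; without the block, adjusted p = 0.829).

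Other mesenchymal genes moved by less or differed by line. Itga5, the fibronectin receptor subunit, changed by -1.23 ± 0.11 (adjusted p = 2.07e-05) and Prrx1 by -0.89 ± 0.18 (adjusted p = 0.00185), although Prrx1 was at 0.410 CPM in A1005. Zeb2 rose by 0.56 ± 0.14 (adjusted p = 0.00795) and Vim was not called (-0.03 ± 0.12, adjusted p = 0.83). Without the block Itga5, Prrx1 and Zeb2 did not pass (adjusted p = 0.132, 0.853 and 0.469). Fn1, the fibronectin gene, was at 1547, 915 and 477 CPM with Crizotinib and 1529, 377 and 5093 CPM with the combination, a fall in A1129 and a rise in A1471 (0.77 ± 0.74, adjusted p = 0.403).

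Of 23 epithelial genes, 10 were too low to test, and among the 13 tested 3 were higher and 4 lower, near the backgrounds of 27.4% and 26.0%. Of these, 2 rises and 3 falls were large (backgrounds 7.60% and 5.20%). Krt7 rose from 0.342, 0.726 and 0.647 CPM to 2.17, 9.96 and 6.04 CPM (3.32 ± 0.28, adjusted p = 1.29e-05), while Krt18, a keratin of simple epithelium, fell (-1.45 ± 0.14, adjusted p = 2.41e-05), as did the epithelial transcription factor gene Grhl2, from 7.31, 2.38 and 10.4 CPM to 0.834, 0.376 and 1.21 CPM (-2.99 ± 0.30, adjusted p = 3.14e-05). Cldn1, a tight junction gene, had 2 reads over the Crizotinib group and is given no fold. Outside that list, Gdpd2, a glycerophosphodiester phosphodiesterase gene, was at 3.62, 11.4 and 2.44 CPM with Crizotinib and 236, 193 and 151 CPM with the combination (5.14 ± 0.39, adjusted p = 7.35e-06). Ncam1, a neural cell adhesion molecule, rose by 1.82 ± 0.15 (adjusted p = 1.00e-05), and Mme, the cell surface peptidase neprilysin, by 5.15 ± 0.35 (adjusted p = 3.60e-06). Without the block Krt18, Ncam1 and Mme did not pass (adjusted p = 0.318, 0.213 and 0.106).

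Interferon response and antigen presentation genes rose. All 30 listed genes were tested and all 30 were higher, against 27.4% of genes tested, 27 by a large change, of which Tgtp1 and Tgtp2 are uncertain. As the list was chosen with earlier results of these data known, its count is a description. Without the block 14 passed (background 5.40%), and in 15 the groups did not overlap (background 13.6%). The median was 2.25, or 2.05 with Tgtp1 and Tgtp2 set to no change, because these 2 near-identical genes had 0 reads in every Crizotinib library and 6 and 9 reads in the combination group, too few for a fold. A1471 had the highest line median at 3.35, against 1.61 for A1005 and 1.48 for A1129, and Mx1, Mx2, Tgtp1 and Tgtp2 did not rise in every line.

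Gbp2 (chr3:142620602-142638008, forward strand), an interferon-inducible GTPase, led the list at 15.1, 6.47 and 6.97 CPM with Crizotinib and 296, 80.0 and 428 CPM with the combination (4.62 ± 0.52, adjusted p = 7.09e-05). Irgm1, a GTPase of the same defence system, was at 9.15, 6.01 and 7.55 CPM with Crizotinib and 35.7, 30.4 and 57.8 CPM with the combination (2.41 ± 0.22, adjusted p = 1.98e-05). Irf1, an interferon regulatory factor, was at 50.7, 33.2 and 64.5 CPM with Crizotinib and 207, 81.5 and 233 CPM with the combination (1.73 ± 0.14, adjusted p = 1.19e-05). No combination library of these 3 genes fell within the range of the Crizotinib libraries.

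The MHC class I genes moved by less. B2m, the invariant chain of MHC class I, was at 476, 226 and 222 CPM with Crizotinib and 1240.1, 421 and 533 CPM with the combination (1.18 ± 0.13, adjusted p = 7.53e-05; without the block, adjusted p = 0.164) and H2-K1, a class I heavy chain, rose by 1.03 ± 0.10 (adjusted p = 3.01e-05). Class I genes are a family of near-identical members, so reads may be shared between them. At the other end Mx1, an antiviral GTPase, was at 1.23, 0.132 and 0.216 CPM with Crizotinib and 3.56, 0.0627 and 3.24 CPM with the combination (2.03 ± 0.66, adjusted p = 0.0254) and did not rise in A1129. Of the 8 leukocyte markers, 2 were at 0 in the Crizotinib group and 1 in the combination group. Of the 3 that were tested, the macrophage gene Cd68 rose (0.67 ± 0.20, adjusted p = 0.0163), the monocyte gene Cd14 fell (-1.07 ± 0.24, adjusted p = 0.00382) and Ptprc was not called, and their part in the interferon result was not tested.

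Many promoters of this list hold the interferon-stimulated response element, and 4 are shown for that reason. The element was read on both strands as GAAA, 2 bases of any kind and GAAA, and was found in 14 of 24 listed genes with an entry (58.3%) and in 3.68% of all tested genes with one. Among all genes with a large rise it was found in 69 of 738 (9.35%), and among those with a large fall in 23 of 501 (4.59%). The matches are in capitals in Ifit3 (chr19:34583361-34583528, forward strand), Gbp2 (chr3:142620543-142620662, forward strand), Isg15 (chr4:156200819-156200938, reverse strand) and Rsad2 (chr12:26456453-26456584, reverse strand), printed up to the start site.
Ifit3: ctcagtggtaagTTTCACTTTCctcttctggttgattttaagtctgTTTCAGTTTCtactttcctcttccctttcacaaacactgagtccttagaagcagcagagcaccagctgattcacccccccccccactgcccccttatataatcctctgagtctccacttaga
Gbp2: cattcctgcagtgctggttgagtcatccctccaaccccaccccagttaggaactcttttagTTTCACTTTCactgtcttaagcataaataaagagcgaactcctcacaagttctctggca
Isg15: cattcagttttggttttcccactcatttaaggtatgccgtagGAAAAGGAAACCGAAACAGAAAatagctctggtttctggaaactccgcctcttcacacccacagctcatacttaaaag
Rsad2: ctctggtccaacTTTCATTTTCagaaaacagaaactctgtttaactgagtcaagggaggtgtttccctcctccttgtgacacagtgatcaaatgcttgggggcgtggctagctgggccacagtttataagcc
Ifit3, an interferon-induced RNA-binding protein gene, went from 0.615, 0.330 and 0.216 CPM to 5.11, 2.44 and 8.68 CPM (3.69 ± 0.52, adjusted p = 2.52e-04), Isg15, a ubiquitin-like modifier, from 6.22, 0.528 and 1.94 CPM to 19.9, 2.07 and 21.1 CPM (2.37 ± 0.43, adjusted p = 0.00122), and the antiviral enzyme gene Rsad2 from 8.81, 0.0660 and 0.0719 CPM to 22.6, 0.439 and 2.72 CPM (1.82 ± 0.60, adjusted p = 0.0272). In Isg15, 3 matches overlap in 1 run.

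**Figure D4:**
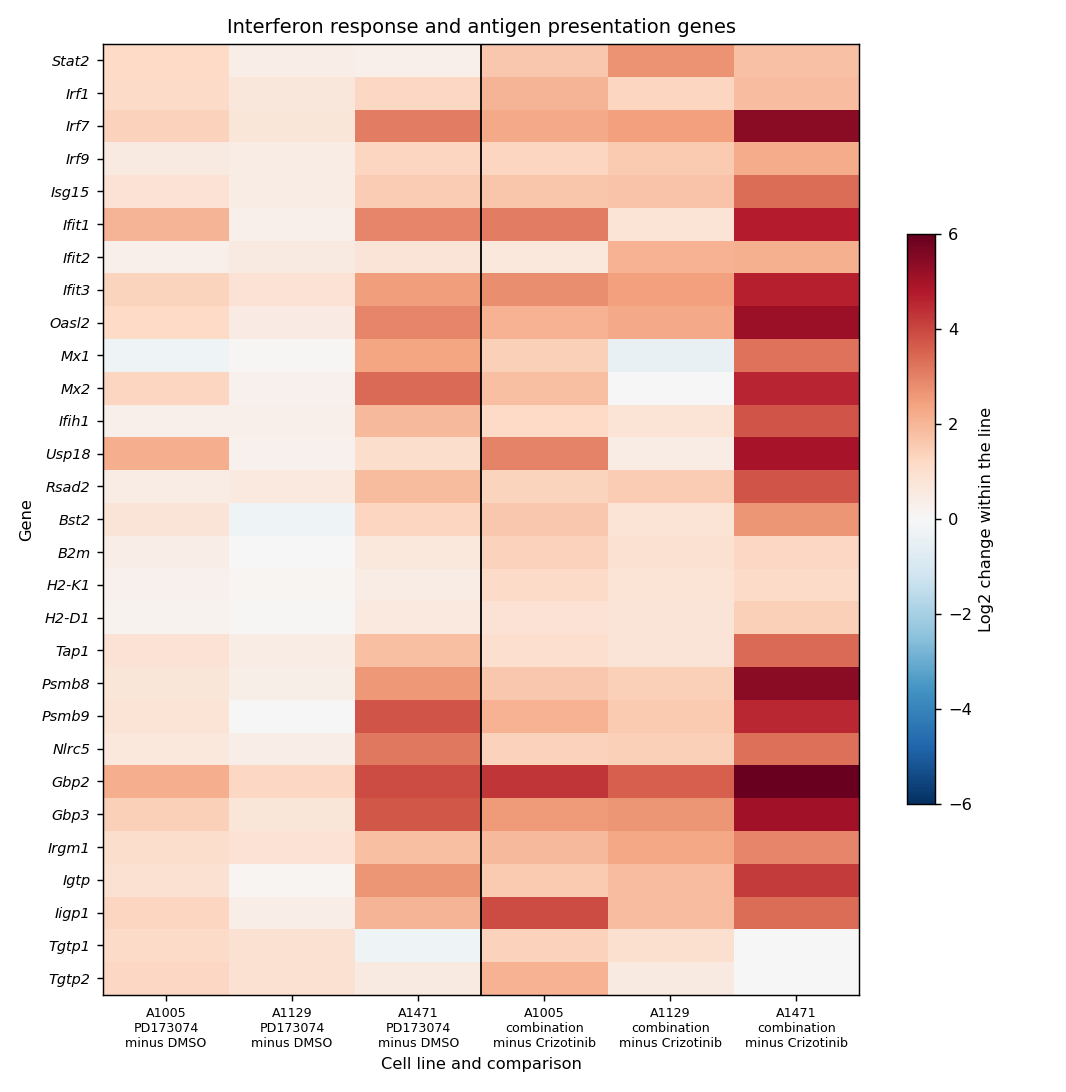
Log2 change within each cell line of 29 of the 30 interferon response and antigen presentation genes, for PD173074 minus DMSO (left 3 columns) and the combination minus Crizotinib (right 3 columns), computed from log2 CPM with a prior count of 2. The median of all 30 genes in the right-hand columns was 1.61, 1.48 and 3.35 in A1005, A1129 and A1471.

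To ask whether these effects needed Met inhibition, the effect of PD173074 with Crizotinib was set against its effect without it; these 2 effects share no library. PD173074 alone changed 296 genes against DMSO (2.14% of those tested), 224 upward (1.62%) and 72 downward (0.520%). The difference between the effects passed the test for 2241 genes (16.2%), 755 with a more positive effect in the presence of Crizotinib (5.46%) and 1486 with a more negative one (10.7%). Without the block the difference passed for 127 genes, 126 of them with a more negative effect and 1 with a more positive one, so nearly all positive differences rest on the pairing by line.

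Among genes that met the limits on level and test, Spry4, Areg, Ccnd1, Dusp6 and Csf3 had the largest negative differences. PD173074 alone changed Spry4 by -1.09 on the log2 scale (adjusted p = 0.0283) and the difference between the effects was -5.10 ± 0.40 (adjusted p = 6.54e-05). For Dusp6 the effect alone was -1.09 (adjusted p = 0.0152) and the difference -4.28 ± 0.27 (adjusted p = 3.93e-05). Ccnd1 was not called with PD173074 alone (-0.88, adjusted p = 0.129), and its difference was -4.47 ± 0.39 (adjusted p = 9.03e-05). Areg and Csf3 had differences of -4.64 and -4.20 (adjusted p = 1.37e-04 and 0.00721). Without the block the difference of Ccnd1 (adjusted p = 0.00219) and Dusp6 (0.0189) still passed and that of Spry4 (0.0793), Areg (0.0803) and Csf3 (0.452) did not.

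Cell cycle genes hardly moved with PD173074 alone. Of the 32 mitosis genes 0 passed in either direction at an adjusted p of 0.05 with edgeR, and of the 32 replication genes also 0, with medians of -0.26 and -0.11, while 8 and 3 of them had an unadjusted p under 0.05. The difference was negative and passed for 32 and 30 of them against a background of 10.7%, Gins4 and Dut being the exceptions. The same held for 17 of 20 ribosome biogenesis factors, with a median change of -0.05 with PD173074 alone.

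Of the 20 matrix genes, 9 rose with PD173074 alone (background 1.62%) with a median of 1.13, and 0 had a positive difference that passed in edgeR's test. Ogn changed by 5.92 alone (adjusted p = 0.00379) with a difference of 1.54 ± 1.15 (adjusted p = 0.382). Of the 30 interferon genes 3 rose with PD173074 alone, with a median of 1.02, and 9 had a positive difference (background 5.46%), among them Gbp2 (2.22 ± 0.66, adjusted p = 0.0447) and B2m (0.83, adjusted p = 0.0181). Bmf rose with PD173074 alone by 3.46 (adjusted p = 0.00558) and further with Crizotinib, with a difference of 2.27 ± 0.60 (adjusted p = 0.0319). Whether the matrix and interferon lists differ in this was not tested, and a p that missed the threshold does not show that effects were equal.

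**Figure D5:**
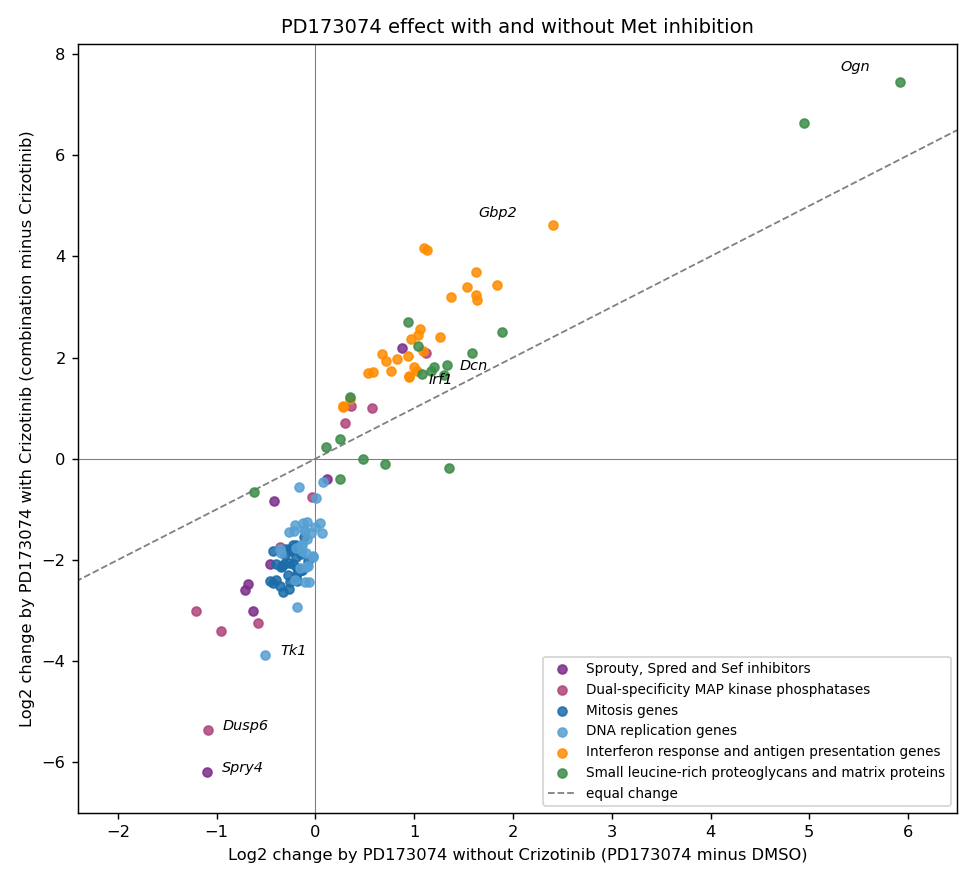
Log2 change by PD173074 with Crizotinib (vertical axis) against that without Crizotinib (horizontal axis) for the tested members of 6 gene lists, leaving out Postn, Tgtp1 and Tgtp2, which had 0 reads in every Crizotinib library; the dashed line marks equal change. Mitosis and replication genes lie close to 0 on the horizontal axis (medians -0.26 and -0.11) and between -3.88 and -0.46 on the vertical axis.

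Rasl12, a RAS-like GTPase, had the largest rise and the largest positive difference among genes above the limit on level (3.34 ± 0.99, adjusted p = 0.0441), but its level in the combination was 0.500, 86.6 and 0.830 CPM, so 1 line carried nearly all of its reads. Tmem44 and Vcam1, a leukocyte adhesion molecule, followed with differences of 2.50 and 2.18 (adjusted p = 0.021 and 0.0353). Vcam1 was at 11.96, 3.90 and 11.5 CPM with Crizotinib and 254, 23.0 and 92.2 CPM with the combination. Egr1, an immediate early factor, moved in opposite directions in the 2 settings, by 2.10 with PD173074 alone and -1.46 with Crizotinib, neither of which passed (adjusted p = 0.101 and 0.0567), while their difference of -3.56 ± 0.82 did (adjusted p = 0.019).

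The lines differed widely in some of the rises. Angptl4, a secreted inhibitor of lipoprotein lipase, was at 33.6, 0.198 and 0.0719 CPM with Crizotinib and 81.4, 4.89 and 123 CPM with the combination (4.45 ± 1.22, adjusted p = 0.0108; within-line changes 1.27, 3.92 and 9.21). Plin4, a lipid droplet coat protein gene, was at 0.547, 1.19 and 0 CPM with Crizotinib and 24.1, 288 and 1.21 CPM with the combination (7.0 ± 0.67, adjusted p = 2.72e-05) and Saa3, an acute phase protein gene, at 2.05, 16.7 and 0.216 CPM with Crizotinib and 1006, 167 and 4.53 CPM with the combination (5.64 ± 1.01, adjusted p = 0.00109). In Plin4 and Saa3, 1 line held most of the reads, and none of these 3 genes passed without the block (adjusted p from 0.0509 to 0.52).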

How the data were processed

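RNA of tumourspheres was sequenced and the authors deposited raw read counts per gene, with no normalization. The submitters' processing notes name bcl2fastq, STAR, HTSeq and mm10. The strand setting and annotation release are not given in the sources used here. The table named 55573 genes and 0 columns belonged to other samples. Symbols, positions and exon lengths came from the GENCODE mouse annotation of the same build.

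Genes passing filterByExpr (13836) were fitted over all 12 libraries with edgeR's quasi-likelihood test, treatment plus cell line, TMM scaling and Benjamini-Hochberg adjustment at 0.05. Large changes also passed 1.5 on the log2 scale. The difference of the PD173074 effects was a contrast of the same fit. Changes within a line used log2 CPM with a prior count of 2, and folds against 0 reads used a floor of 3 reads. The scripts were tested on simulated data. Versions were R 4.3.3, edgeR 4.0.16, DESeq2 1.42.0 and limma 3.58.1.

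The lines pair the libraries by their labels, and deviations from group means correlated at a mean r of 0.871 in libraries of the same line under different treatments. With 1 library per line and treatment, p-values of the fit with the block measure how unevenly the lines responded, pooled over all treatments. Those without the block also hold the differences in level between lines. Of 66 pairs of libraries 0 held identical values. The genes named were the members of gene lists and those with the largest falls, rises and differences, the smallest p and the widest ranges between lines. The members and lists were chosen with earlier results of these data known. A few list members were named after their values were seen. Alternatives were no block, DESeq2, voom, other scalings and filters, the 6 libraries alone and leaving out each line. A few genes were tested but are not reported here.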

Additional observations from a re-analysis of the deposited data

Results flagged for a closer look

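The effect of PD173074 with Crizotinib differed from its effect without Crizotinib for 2241 genes by edgeR's quasi-likelihood test of the difference. More negative effects with Crizotinib were largest for Spry4 (-5.10 on the log2 scale), Areg (-4.64), Ccnd1 (-4.47), Dusp6 (-4.28) and Csf3 (-4.20). More positive effects were largest for Rasl12 (3.34), Tmem44 (2.50), Bmf (2.27), Gbp2 (2.22) and Vcam1 (2.18). Without the block none of these 5 passed (edgeR, adjusted p from 0.32 to 0.929), and of the negative ones Ccnd1 and Dusp6 passed and Spry4, Areg and Csf3 did not. In all 10 genes the combination and Crizotinib libraries did not overlap (29.7% of all genes tested). The 10 were chosen by a difference that contains those values, so the lack of overlap is no separate support for it. In Rasl12, 1 line held nearly all the reads.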

How the results depend on the processing

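The counts of genes that differed between the combination and Crizotinib (7389), of large changes (1770) and of differences between the PD173074 effects (2241) fell to 1823, 741 and 127 without the replicate block, the last with 126 negative and 1 positive. DESeq2 without the replicate block gave 2930 genes and 1016 large changes. A minimum of 10 reads in every library left 847 large changes, and the 6 libraries alone gave 4691 genes. Leaving out 1 line gave 4880 to 6545 genes, 1513 to 1924 large changes and 423 to 1679 differences, the lowest counts all being without A1471, and without A1129 there were 496 differences. DESeq2 with the block, voom, other scalings and no filter kept all 3 counts within 1.5 times.

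Among 151 genes followed, 60 lost their call without the replicate block, as did 72 of 91 called differences. Leaving out A1005, A1129 or A1471 ended 3, 9 and 14 of the calls and 17, 46 and 57 of the differences. No called gene changed sign, and 4 that were not called did. Vim was at 0.0151 with DESeq2 without the block, 0.0118 with total counts and 0.0088 with at least 10 reads, and between -0.158 and 0.0705 on leaving out 1 line. Scd2 was at -0.01326 with voom and between -0.544 and 0.448 on leaving out 1 line, and its fall without A1129 passed the test, as did that of Cdkn1a. Cdkn1a ranged from -1.04 to 0.06165 and Fn1 from -0.64 to 1.86 on leaving out 1 line. The causes were not tested.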

Other observations

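Cholesterol and fatty acid synthesis genes differed by line. Of 19 tested, 4 fell and 0 rose, where 26.0% of all tested genes fell and 27.4% rose, and the list's median log2 change was positive in A1129 (0.34) and negative in A1005 (-0.41) and A1471 (-0.78). Glycolysis genes, which number 15 and were tested under 16 identifiers because Aldoa has 2, fell for 10 identifiers and rose for 0, with a median of -0.49, and 0 passed without the block. Of 14 integrated stress response genes 6 fell and 2 rose, and 2 and 0 did without the block. Of 11 adipocyte differentiation genes 4 rose and 2 fell, and 1 and 0 did without the block.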
